A study of Homo sapiens with 14 samples.

Results

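Jurkat cells, which come from a human T cell leukemia and are kept in suspension, were measured alone and after HEK-293T cells, an adherent line from human embryonic kidney, had been added so that they made up 20% of the cells. The comparison takes 2 libraries with 20% HEK and 80% Jurkat cells and 2 libraries with 0% HEK, that is, Jurkat cells only, which is 4 of the 14 libraries of a series that mixed the lines in 7 proportions. Jurkat cells had been grown in RPMI medium and HEK-293T cells in DMEM, each mixture held 1000000 cells, and no treatment is named for either line. The libraries of a mixture are described as technical replicates, so every SD and p-value here measures the spread between libraries of one mixture, not between cultures. Polyadenylated RNA was captured with oligo-dT, and ERCC spike-ins, synthetic RNAs added in a constant amount, went into each RNA sample. The comparison asks how far a minority of RNA-rich cells changes a bulk expression profile, and which Jurkat transcripts keep their place at its top.

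In a bulk measurement the RNA of all cells is pooled, so each cell type contributes in proportion to the number of its cells multiplied by the RNA each of them carries. T cells are recognized by the T cell receptor with its CD3 chains, by the kinases and adaptors that pass on its signal and by lineage transcription factors such as TCF7, LEF1 and BCL11B. HEK-293T cells carry few of these transcripts and express instead genes of attached cells, namely junctions, extracellular matrix and contractile actin, together with neurofilaments and transcription factors of the developing kidney. A lower share of a transcript in a mixture can come from fewer cells that express it, from less of it per cell or from more RNA of other cells. The bulk libraries alone cannot tell fewer cells from less per cell, but here the cell numbers were set when the lines were mixed.

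The 20% HEK libraries held 18848017 and 14063722 gene counts and the 0% libraries 4468822 and 6204316, over 58440 genes with the spike-ins left out. The cDNA had been pooled by qPCR of Actb, and what set these depths was not tested. Levels are given as CPM, the counts of a gene per 1000000 gene counts of its library, and 3 counts, taken as the floor of detection, equal 0.159 and 0.213 CPM in the 20% libraries and 0.671 and 0.484 CPM in the 0% libraries. Intervals and floors cover counting error only. The labels held against CD3D and NEFM, a marker of each line. Of the other markers listed for this check, VIM of HEK cells was not higher at 20%, and CD3E and ZAP70 of T cells were not called lower, as given below. CD3D, a CD3 chain, was at 260.2 and 238 CPM in the 0% libraries, 130.0 and 150.0 CPM in the 20% libraries and 0.529 and 0.264 CPM in the 2 libraries of HEK cells only. NEFM, the medium neurofilament subunit, was at 9.62 and 4.84, 1057 and 1047 and 1152 and 1324 CPM in the same order. Of 17 markers of B cells, myeloid, erythroid and endothelial cells and fibroblasts, 4 had enough counts to be tested. Of these 2 were higher and 1 lower at 20%, where 16.0% of all genes were higher and 9.25% lower. The log2 changes of the 4 ran from -1.48 to 7.45. All 17 summed to 37.3 and 57.8 CPM at 0% and 31.7 and 31.4 CPM at 20%, and HBB, CDH5 and VWF were at 0 in all 4 libraries. The part of other cells in the results below was not tested. Counting is not stated to use strand, so reads of overlapping genes, such as those at PTPRC, ETS1, CALD1, EMX2 and MORC3 below, cannot be told apart. By the names of the deposited data, all 4 libraries belong to one group of 8, and the 2 pure HEK libraries to the other group of 6.

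The share of gene counts on genes of each line moved far more than the cell percentages. Genes were called Jurkat-high or HEK-high when their mean levels in the pure lines were at least 4 times apart, the libraries of the lines did not overlap and the higher line had a mean of at least 20 CPM. Since the 0% libraries took part in that choice, the class values are a description and not a test. The 520 Jurkat-high genes took 9.27% and 8.83% of the counts in the 0% libraries and 3.64% and 3.67% in the 20% libraries, against 0.966% and 0.930% in pure HEK. The 690 HEK-high genes rose from 0.448% and 0.477% to 3.79% and 3.85%, and stood at 5.85% and 6.01% in pure HEK. In both classes the 20% HEK libraries therefore lay closer to pure HEK than to pure Jurkat, although 80% of their cells were Jurkat.

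**Figure D1:**
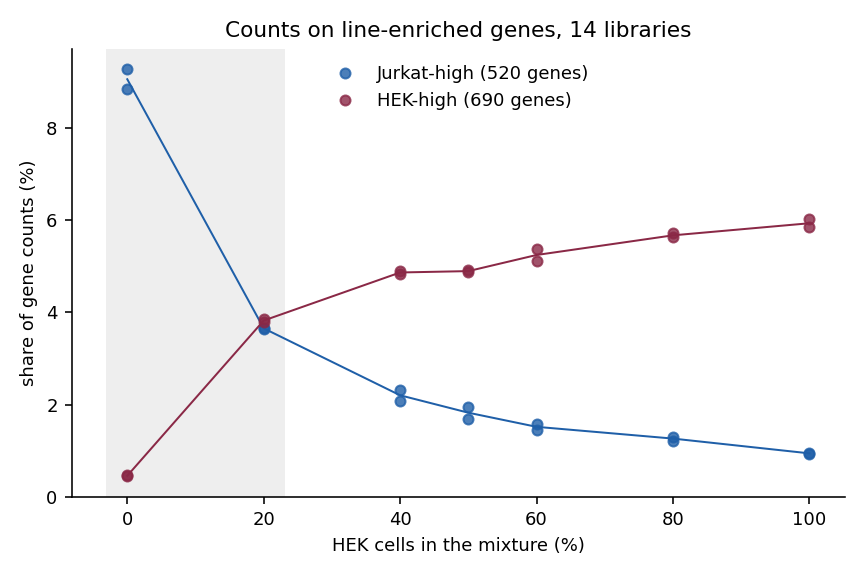
Percent of gene counts on the 520 Jurkat-high and the 690 HEK-high genes in each of the 14 libraries, against the percent of HEK cells in the mixture. Each point is a library. The 0% and 20% libraries show the widest gap between neighbouring mixtures in both classes, with the Jurkat-high share going from 9.27% and 8.83% to 3.64% and 3.67%.

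Each 20% library was then placed between the pure lines, by taking for every gene of both classes the position of its CPM between the pure Jurkat and the pure HEK mean, and the median over genes as the percent of RNA from HEK cells. The HEK share of RNA was 59.9% and 62.4% in the 2 libraries, a mean of 61.1% ± 1.82 (SD, n = 2). With 20% of the cells, this equals a ratio of RNA per HEK cell to RNA per Jurkat cell of 5.96 and 6.65, and the other mixtures gave ratios between 5.13 and 7.98. Jurkat-high genes alone gave a mean of 66.9% and HEK-high genes alone 57.9%, so the estimates from the 2 classes differed by more than the spread between the libraries.

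The spike-ins give a second scale. There were 17.4 and 28.0 gene counts per ERCC count in the 20% libraries and 12.1 and 12.3 in the 0% libraries, means of 22.7 ± 7.48 and 12.2 ± 0.174 (SD, n = 2 each). The groups did not overlap, and the ratio of the means was 1.86, with 1.43 for the first and 2.29 for the second 20% library. By an exact permutation test (two-sided) p was 0.333, and 2 against 2 libraries allow no smaller value. Weighting the pure lines, at means of 122 ± 35.4 (SD, n = 2) and 12.2 gene counts per ERCC count, by the cell percentages gives an expected ratio of 2.81. That is above both libraries, but the pure HEK libraries behind it were apart, at 147 and 97.3. The pure lines differed 10.0-fold on this scale, more than the ratios per cell of 5.96 and 6.65 from the HEK share of RNA. Libraries of other mixtures were also apart, at 44.8 and 34.3 for 40% HEK and 44.6 and 25.5 for 50%. They were at 29.9 and 56.1 for 60% and at 46.6 and 123 for 80%, so the scale did not rise steadily with HEK percent. Results on the spike-in scale below carry this spread.

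Of 16199 genes with enough counts, 4096 differed between 20% and 0% HEK (25.3%, edgeR quasi-likelihood test, Benjamini-Hochberg adjusted p under 0.05), 2598 of them higher (16.0%) and 1498 lower (9.25%). The rises were larger than the falls. In CPM, mixing lets a transcript absent from HEK cells fall only to the Jurkat share of RNA. It sets no such limit on the rise of a gene near 0 in pure Jurkat, so mixing alone gives larger rises. Among the genes called, 1322 rose and 40 fell by at least 8-fold, and the median log2 change was 3.05 for genes called higher and -1.38 for genes called lower, against 0.05 over all genes tested. Scaling to library totals in place of TMM, edgeR's trimmed mean of M-values, moved the split to 3184 higher (19.7%) and 1078 lower (6.65%), or 26.3% of all genes called and 74.7% higher in place of 63.4%. Scaling to the spike-in totals moved the median of all genes to 1.10 and called 37.1% of the genes, 5917 higher (36.5%) and 87 lower (0.537%). The count also rests on each 20% library. Without the first it was 711 higher and 53 lower, and without the second 770 and 88, while without the first or the second 0% library it was 2408 and 1572 or 2070 and 1247.

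Of the 690 HEK-high genes, 648 were called higher and 0 lower, with a median log2 change of 3.47, and of the 520 Jurkat-high genes 422 were called lower and 1 higher, with a median of -1.48. Among the 14989 genes in neither class 1949 were higher and 1076 lower. A second set of genes did not use these 4 libraries. Over the other 10 libraries, from 40% to 100% HEK, 546 genes fell as the HEK percent rose. This trend crosses the groups of data names, with the 40% libraries in one and the pure HEK libraries in the other. The part of that grouping was not tested. All 546 were tested at 20% against 0%, where 386 (70.7%, against 9.25% of all genes) were lower, 1 was higher, and 542 had a log2 change below 0, with a median of -1.28. Of the 18 genes that rose over the other mixtures 17 were tested, and 8 of them were higher, where 16.0% of all genes were, and 0 lower at 20%, while 7 had a log2 change below 0.

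**Figure D2:**
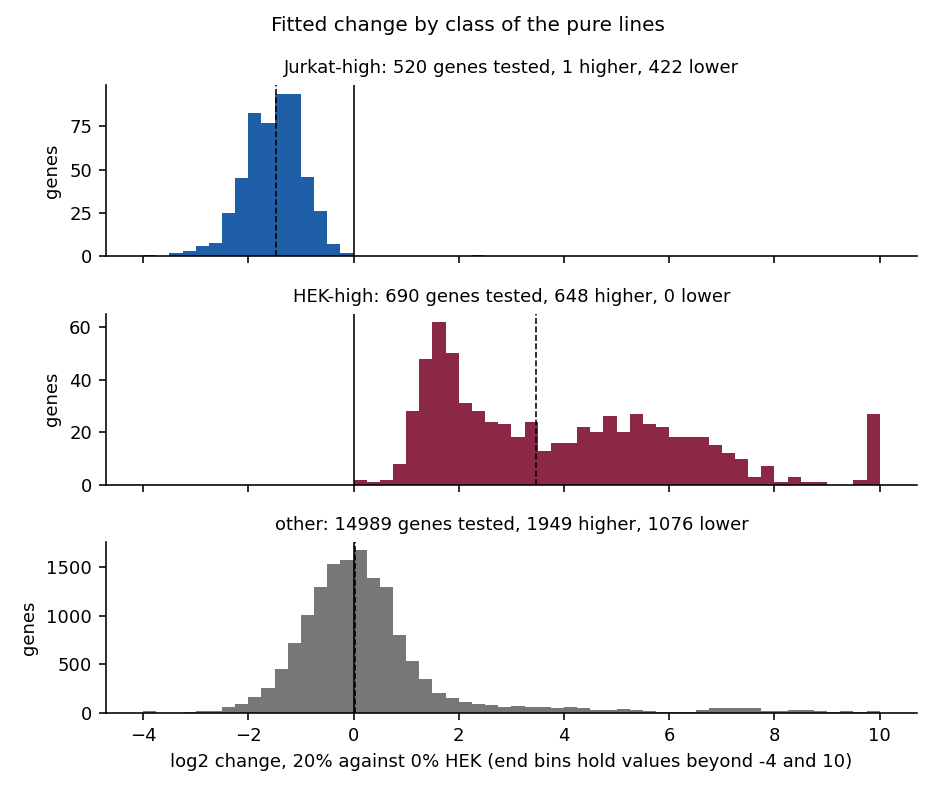
Log2 change of the tested genes between 20% and 0% HEK, drawn as histograms of gene numbers (vertical axis) for Jurkat-high, HEK-high and all other genes, under TMM scaling. Jurkat-high genes centre on -1.48 and HEK-high genes on 3.47, while the other genes centre on 0.03. The median of all genes moves from 0.05 to 1.10 under spike-in scaling.

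Jurkat-high transcripts fell further in CPM than per spike-in. The median ratio of 20% to 0% over the 520 Jurkat-high genes was 0.412 and 0.394 in CPM for the 2 libraries. Per ERCC count it was 0.587 and 0.905, with a mean over the libraries of 0.748. For 541 of the genes that fell over the other mixtures the CPM ratio was 0.456 and 0.459, and the ratio per ERCC count 0.651 and 1.05. The mixture held 80% as many Jurkat cells as pure Jurkat. For both sets of genes the first library lay below and the second above that proportion on the spike-in scale. That proportion is not an expected ratio, because HEK cells also carried transcripts of Jurkat-high genes, at 0.966% and 0.930% of counts in pure HEK. The 2 libraries were close to each other in CPM ratios and far apart in ratios per ERCC count.

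Every T cell list had more genes lower than higher by TMM, with medians of the log2 change between -1.58 and -0.96. With library totals these medians lay between -1.41 and -0.80, and on the spike-in scale between -0.50 and 0.11. The T cell receptor and CD3 chains, which bind antigen and carry the signal into the cell, summed to 1222 and 1461 CPM at 0% and 590.1 and 669.5 CPM at 20%. Of the 7 chains 6 were lower, where 9.25% of all genes were, and 0 higher, with a median log2 change of -1.10, and on the spike-in scale 0 were called either way, with a median of -0.03. CD3G was at 379 and 511 CPM without and 105 and 182 CPM with HEK cells, a log2 change of -1.80 ± 0.35 (SE, adjusted p = 0.0225). Both 20% libraries were below both 0% libraries. TRBC1, a constant region of the receptor's beta chain, went from 343 and 437 to 205 and 204 CPM, a log2 change of -1.10 ± 0.23 (SE, adjusted p = 0.0257). CD3D, whose levels are given above, changed by -0.997 ± 0.21 (SE, adjusted p = 0.0277), and on the spike-in scale its change was 0.09. TRAC, the constant region of the alpha chain, was at 96.7 and 109.8 CPM and then 48.5 and 51.5 CPM, a log2 change of -1.21 by TMM and -0.14 by spike-ins. CD3E did not pass, at 34.5 and 43.8 CPM against 42.6 and 19.6 CPM (log2 change -0.50, adjusted p = 0.384), with the first 20% library inside the range of the 0% pair.

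Of 14 genes of proximal receptor signaling 9 were lower and 0 higher, with a median log2 change of -1.22, or -0.16 with spike-in scaling, where 0 were lower and 1 was higher. LCK, the kinase that phosphorylates the CD3 chains, was at 152 and 141 CPM at 0% and 78.3 and 81.3 CPM at 20%, a log2 change of -1.04 ± 0.20 (SE, adjusted p = 0.0225) by TMM and of 0.02 on the spike-in scale. SKAP1, an adaptor that links the receptor to integrins, fell further, from 79.7 and 81.1 to 20.3 and 24.6 CPM (log2 change -2.00, adjusted p = 0.00610). PTPN22, a phosphatase that restrains LCK, was lower expressed, at 9.62 and 9.99 CPM and then 2.55 and 2.56 CPM (log2 change -2.10, adjusted p = 0.00769). ZAP70, the kinase that binds phosphorylated CD3, was at 33.8 and 25.3 CPM and then at 19.4 and 22.3 CPM, which did not pass (log2 change -0.67, adjusted p = 0.0969), although the groups did not overlap.

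Among 18 tested leukocyte surface genes 11 were lower and 0 higher, with a median of -0.96 that turned to 0.11 with spike-in scaling, under which 0 were called. PTPRC (CD45, chromosome 1, 198638457 to 198757476, GRCh38), the phosphatase found on all nucleated blood cells, was at 1363 and 1670.1 CPM in the 0% libraries and at 371 and 488 CPM in the 20% libraries, a log2 change of -1.99 ± 0.26 (SE, adjusted p = 0.00837). In pure HEK it was at 0.846 and 0.198 CPM. IL7R, the receptor chain for interleukin-7, went from 22.6 and 25.8 to 5.01 and 5.52 CPM, a log2 change of -2.37 ± 0.24 (SE, adjusted p = 0.00467). Among 10 genes of the blood cell cytoskeleton and its GTPases, 7 were lower and 0 higher, with a median of -1.07 that was 0.00 with spike-in scaling. LCP1, a leukocyte actin bundler, fell from 582 and 397 to 202 and 199.9 CPM, and ARHGDIB, a regulator of small GTPases in blood cells, stood at 339 and 333 and 226 and 261 CPM, which did not pass (adjusted p = 0.0778).

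The T lineage transcription factors moved as a whole. All 14 that could be tested were lower, of 16 listed, with a median log2 change of -1.58, and their sum fell from 4665 and 4123 to 1397 and 1599 CPM. BCL11B, needed for commitment to the T lineage, was at 578 and 537 CPM at 0% and 116 and 161 CPM at 20%, a log2 change of -2.18 ± 0.26 (SE, adjusted p = 0.00662). TCF7, a partner of beta-catenin in thymocytes, was at 688 and 725 CPM and 267 and 246 CPM, a log2 change of -1.63 ± 0.20 (SE, adjusted p = 0.00761). IKZF2 (Helios), a zinc finger factor of T cells, was at 764 and 363 CPM and 95.1 and 154 CPM, with the 0% libraries apart from each other and above both others. TAL1, a blood factor activated in T cell leukemia, went from 50.7 and 58.2 to 27.2 and 21.4 CPM. On the spike-in scale the median was -0.50 and 1 of the 14 was lower. That gene was ETS1, at 194 and 475 CPM without and 74.5 and 59.4 CPM with HEK cells, with a log2 change of -2.49 ± 0.47 (SE, adjusted p = 0.0209) by TMM and -1.47 by spike-ins (adjusted p = 0.0324). The 2 libraries without HEK cells were far apart for ETS1 and did not overlap the 20% pair.

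**Figure D3:**
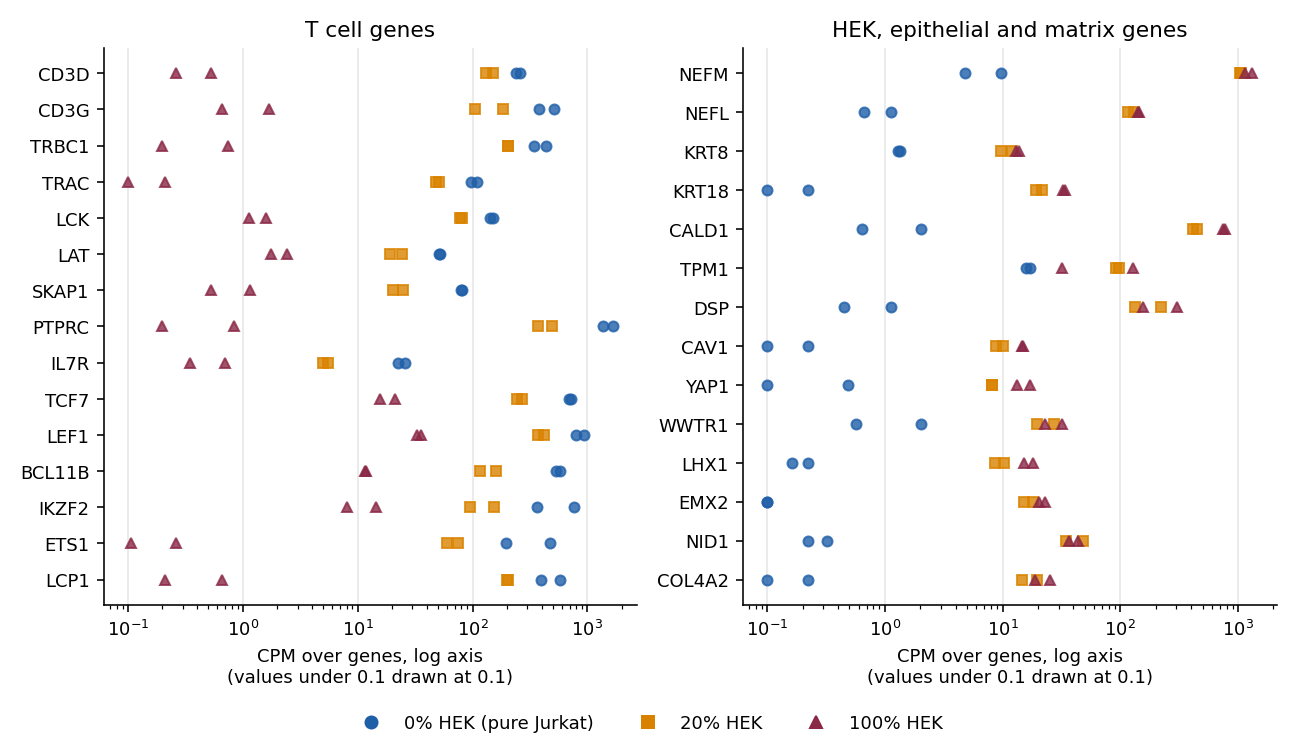
CPM of T cell genes and of HEK genes on a log axis in the 0% (Jurkat only), 20% and 100% HEK libraries, with values under 0.1 drawn at 0.1. Each point is a library. T cell genes at 20% sit closer to pure Jurkat on this axis, for example CD3D at 130.0 and 150.0 CPM, and HEK genes such as NEFM, at 1057 and 1047 CPM, sit close to pure HEK.

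In every list of genes typical of HEK cells more genes were higher than lower at 20%, under TMM and library total scaling. The same held with spike-in scaling, but there 36.5% of all genes were higher and 0.537% lower. DNA replication, a function of both lines, then also had 13 genes higher and 0 lower. Of 8 tested filament genes 6 were higher, where 16.0% of all genes were, and 0 lower, with a median log2 change of 4.87, or 3.46 with the gene at 0 in both 0% libraries set at its lower bound. NEFM changed by 7.04 ± 0.42 (SE, adjusted p = 0.00213) from levels given above, and its 20% mean was 84.9% of the pure HEK mean. KRT18, an epithelial keratin, had 1 count over both 0% libraries and 21.5 and 19.1 CPM in the 20% libraries, which is a ratio of 219 with an exact 95% counting interval from 39.1 to 8646. KRT8, the partner of KRT18, was at 1.34 and 1.29 CPM and 9.72 and 11.9 CPM (log2 change 2.87, adjusted p = 0.00635), and at 12.9 and 13.7 CPM in pure HEK. VIM, the intermediate filament of mesenchymal cells and leukocytes, did not pass, at 272 and 396 CPM against 249.9 and 276 CPM (log2 change -0.51, adjusted p = 0.197), and its sign turned to 0.56 with spike-in scaling.

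Of 11 genes of adhesion and caveolae 9 were higher and 0 lower, with a median of 2.23. DSP, the plaque protein desmoplakin, was at 0.448 and 1.13 CPM at 0% and 221 and 134 CPM at 20%, so that the 20% libraries differed between themselves and were far above both others. CTNNB1, beta-catenin, which links cadherins to actin and also carries Wnt signals, rose less, from 31.3 and 35.0 to 72.5 and 80.8 CPM, a log2 change of 1.04 ± 0.22 (SE, adjusted p = 0.0257). Of 12 tested matrix genes 9 were higher and 0 lower, with a median of 5.81, or 4.33 with the gene at 0 at its lower bound. NID1, the basement membrane linker nidogen, was at 0.224 and 0.322 CPM and 34.5 and 47.9 CPM. LAMC1, a laminin chain, was at 0 and 0.645 CPM and 90.5 and 44.9 CPM, with the 20% libraries again apart.

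Of 10 contractile actin genes 3 were higher and 7 did not pass, with a median of 0.68. CALD1 (caldesmon, chromosome 7, 134744252 to 134970729, GRCh38), which regulates myosin on actin filaments, went from 2.01 and 0.645 to 412 and 451 CPM, a log2 change of 8.25 ± 0.50 (SE, adjusted p = 0.00213). TPM1, a tropomyosin, went from 15.9 and 17.2 to 98.5 and 92.4 CPM. Among 11 genes of the YAP and TEAD pathway, which reads cell shape and attachment, 5 were higher and 0 lower, with a median of 2.33, or 1.60 with the gene at 0 at its lower bound. WWTR1, the coactivator TAZ, went from 2.03 and 0.567 to 27.1 and 19.4 CPM.

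Of 9 tested transcription factors of kidney and urogenital development 8 were higher and 0 lower, with a median of 5.41, or 4.30 when the 3 genes at 0 in both 0% libraries are set at their lower bound. GATA2, a zinc finger factor of the urogenital tract that also acts in blood progenitors, was at 4.03 and 1.77 CPM and 20.2 and 12.6 CPM. EMX2, required for the urogenital system, had no count in either 0% library and 18.0 and 15.3 CPM in the 20% libraries, at least 28.8-fold higher when the floor of 3 counts per library stands for the 0% level. Annexins and S100 proteins, calcium-binding proteins of membranes, split. Of 9 tested, 4 were higher and 2 lower, with S100A11 rising from 2.24 and 0.967 to 73.0 and 94.1 CPM and ANXA1 falling from 53.3 and 62.5 to 36.3 and 34.4 CPM (log2 change -0.88, adjusted p = 0.0369), which was 0.17 with spike-in scaling.

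Lists of functions that both lines use are to be read against the 16.0% of all genes that were higher and the 9.25% that were lower. Of 26 DNA replication genes 0 were called by the edgeR quasi-likelihood test, with a median of 0.25, while 4 had an unadjusted p under 0.05 and DESeq2 called 1 higher. Of 21 mitosis genes 2 were lower and 0 higher, with a median of -0.41 that became 0.62 with spike-in scaling. These were CDK1, which drives entry into mitosis and was at 296 and 643 CPM and then 115 and 121 CPM, and TOP2A, which untangles chromosomes and went from 2084 and 1678 to 1059 and 1085 CPM. Of 17 glycolysis genes 3 were higher and 0 lower, with a median of 0.27, and TPI1 went from 127 and 145 to 321 and 305 CPM. Of 13 cholesterol synthesis genes 1 was higher and 2 lower, with a median of -0.52, or 0.54 with spike-in scaling. The one higher was CYP51A1, the sterol 14-demethylase, from 7.61 and 6.71 to 56.5 and 42.3 CPM.

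Of 14 genes of MHC class I and its peptide supply 6 were lower and 0 higher, with a median log2 change of -0.55 that turned to 0.55 with spike-in scaling, where 0 were lower. NLRC5, the transactivator of MHC class I genes, was at 48.1 and 43.7 CPM and 10.3 and 11.0 CPM (log2 change -2.27, adjusted p = 0.00385). PSMB8 and PSMB9, immunoproteasome subunits that also count among the proteasome genes, went from 44.5 and 62.9 to 28.7 and 26.7 CPM and from 47.0 and 49.2 to 20.5 and 16.9 CPM. Of 17 proteasome core genes these 2, PSMA4 and PSMA7 were lower, 0 were higher, and the median was -0.06, or 0.99 with spike-in scaling. B2M, the invariant light chain of MHC class I, went from 397 and 343 to 231 and 243 CPM (log2 change -0.81, adjusted p = 0.0420), and its change was 0.26 on the spike-in scale.

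Of 77 cytosolic ribosomal protein genes 16 were higher and 1 lower, with a median of 0.52, and they summed to 72023 and 83886 CPM at 0% and 116170.0 and 114705 CPM at 20%. RPL36A rose from 544 and 529 to 2015 and 2361 CPM, and RPL34, the one lower, fell from 2816 and 2938 to 1530.5 and 1535 CPM. Ribosomal protein genes have processed pseudogenes that share reads, so the split between gene and copy is uncertain. Of 15 mitochondrially encoded genes 1, MT-RNR1, was lower and 0 were higher, with a median of 0.12. Of 13 reference genes 3 were higher and 1 lower, with a median of 0.09. ACTB, beta-actin, was at 1294 and 1391 CPM and 1151 and 1159 CPM, and GAPDH at 1144 and 918 CPM and 1127 and 1230.1 CPM. Neither passed (adjusted p = 0.198 and 0.933). HPRT1 and SDHA, which belong to the same list, were higher, with log2 changes of 0.81 and 1.04.

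**Figure D4:**
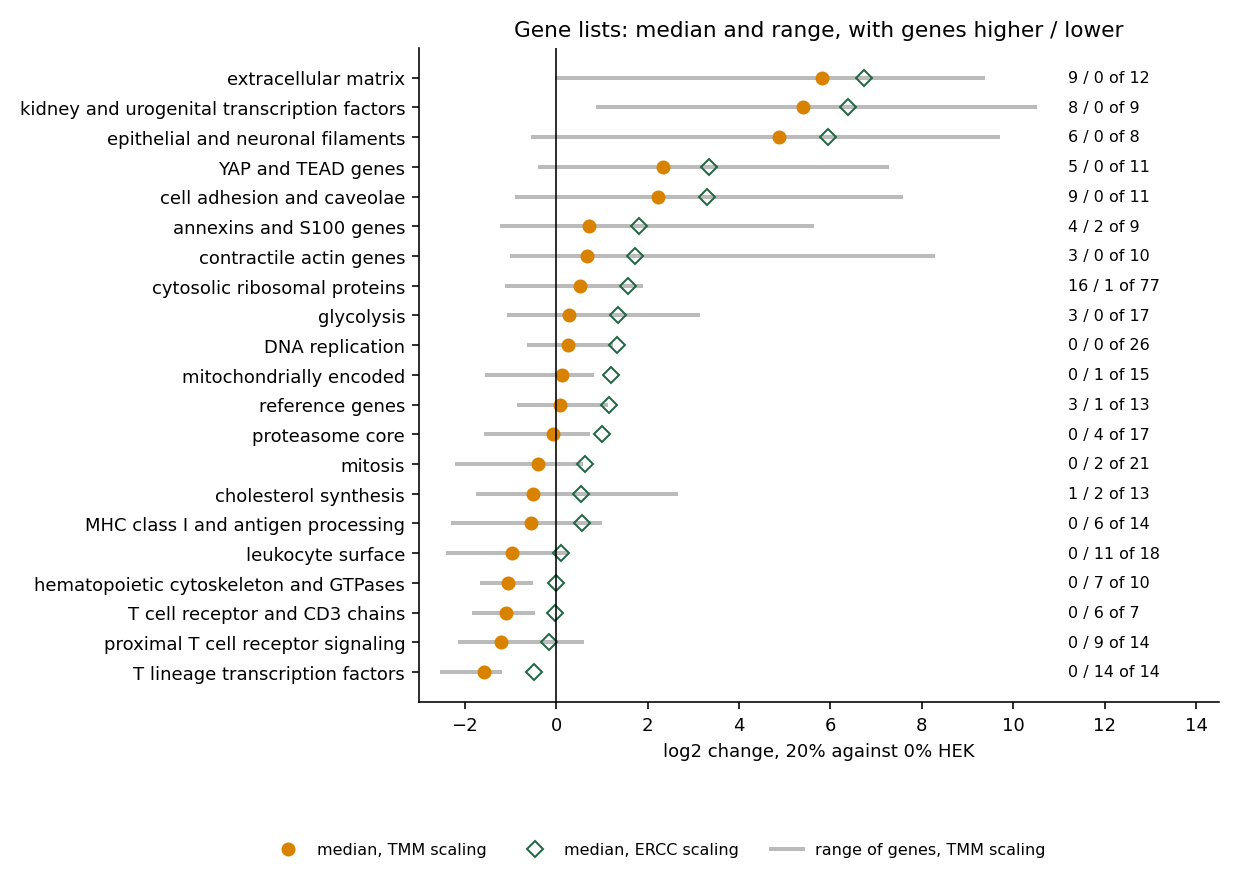
Median log2 change (20% against 0% HEK) of each gene list under TMM scaling (filled circles) and ERCC scaling (open diamonds), with the range of its genes under TMM scaling (grey lines) and the number higher, lower and tested at the right. T cell lists lie below 0 under TMM scaling, between -1.58 and -0.96. Under ERCC scaling they lie between -0.50 and 0.11, where the leukocyte surface median turns positive. HEK lists lie above 0 under both. The median of all genes is 0.05 under TMM scaling and 1.10 under ERCC scaling.

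Transcript levels between genes were compared as TPM, counts per gene length scaled to 1000000 over genes. The cDNA had been primed with oligo-dT, and whether counts in these libraries grow with gene length was not tested. Ranks by TPM rest on that scaling. Of the 100 genes with the highest mean TPM at 0%, 74 were also among the top 100 at 20%, or 64 of 100 by CPM. PTMA, which encodes prothymosin alpha, was first at 0% and second at 20%. Its level was 11912 and 12315 CPM and then 7117 and 7020.3 CPM, a log2 change of -0.94 ± 0.20 (SE, adjusted p = 0.0265) that became 0.12 with spike-in scaling. MT-RNR2, the large mitochondrial ribosomal RNA, went from rank 4 to rank 1 and HSP90AA1, the stress-inducible HSP90, from rank 2 to rank 4. HMGB1, a chromatin protein, was at rank 5 and then at rank 27, with 6830.1 and 9580.0 CPM at 0% and 4747 and 4026 CPM at 20%.

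Jurkat-high genes were a small part of the top at 0% and a smaller one at 20%. The top 100 held 4 of them at 0% and 2 at 20%, the top 500 held 39 and 13, and the top 1000 held 71 and 33. HEK-high genes went from 2 to 14 in the top 500 and from 3 to 26 in the top 1000. By TPM the highest Jurkat-high gene at 20% was ENSG00000278791, which has no symbol in the annotation. It was the 1 Jurkat-high gene called higher, at 55.3 and 14.8 CPM at 0%, 243 and 159 CPM at 20% and 1.65 and 13.1 CPM in pure HEK (log2 change 2.37, adjusted p = 0.0457), and went from rank 246 to 33. The highest with a symbol was TMSB4X (chromosome X, 12975110 to 12977227, GRCh38), which encodes thymosin beta-4, the protein that holds actin monomers. It was at 3861 and 3902 TPM at 0% and 1979 and 1999 TPM at 20%, rank 26 and then 82. Its log2 change was -1.02 ± 0.20 (SE, adjusted p = 0.0217) by TMM and 0.04 by spike-ins.

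NUCB2, a calcium-binding protein of the secretory pathway, was the next highest, at 2515 and 1943 TPM and then 983 and 916 TPM, from rank 51 to 175. RNASEH2B, a subunit of the nuclease that removes ribonucleotides from DNA, went from rank 82 to 274. LEF1, the Wnt-dependent partner of TCF7, was at 1209 and 1022 TPM and 423 and 501 TPM and went from rank 153 to 351. SOX4, a factor of early lymphocytes, was at 1486 and 1024 TPM and 417 and 484 TPM and went from rank 133 to 359. In CPM the order differed, with SOX4 at 2466 and 2885 CPM at 20%, above TMSB4X at 1186 and 1207 CPM. The 15 Jurkat-high genes with a symbol and the highest TPM at 20% ended at rank 690, with FYB1, an adaptor of receptor signaling that had been at rank 270. Down to that rank, 2 of 17 Jurkat-high genes have no symbol, ENSG00000278791 and ENSG00000260335, the latter at rank 212 and then 343. All 15 with a symbol had lost rank, and all but U2AF1 and PSME1 passed the test as lower (adjusted p = 0.159 and 0.265 for these). U2AF1 is duplicated in the GRCh38 reference, so its level is uncertain. Receptor genes stood lower in the list, with TRBC1 going from rank 325 to 563 and CD3D from 432 to 689. FAM133B and its near-identical copy FAM133DP are also in this list, and their reads cannot be assigned with certainty.

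**Figure D5:**
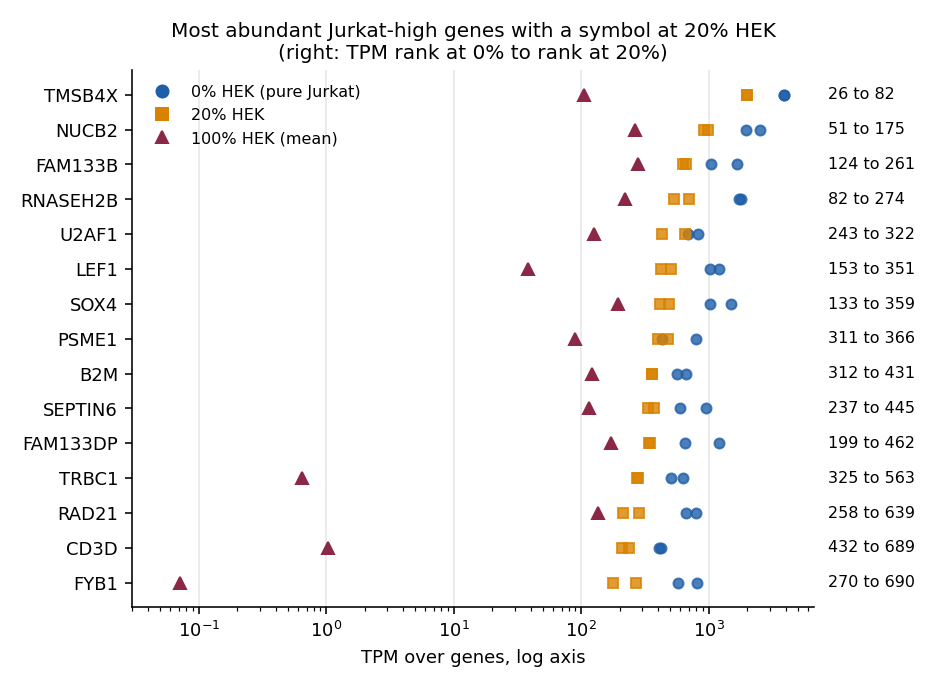
TPM on a log axis of the 15 Jurkat-high genes with a symbol and the highest mean TPM in the 20% HEK libraries. The 2 genes without a symbol in this range are not drawn. Circles are the 0% libraries, squares the 20% libraries and triangles the mean of the pure HEK libraries, and the numbers at the right give the rank by mean TPM at 0% and at 20%. Of the genes drawn TMSB4X is highest, and all 15 lose rank.

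HEK-high transcripts entered from far below. TCEAL4, a gene of the elongation factor A family, went from 17.2 and 16.4 to 447 and 402 CPM and from rank 3719 to 248. CKB, the brain type creatine kinase, was at 7.38 and 5.80 CPM and 259 and 243 CPM, and ENAH, a regulator of actin assembly, at 61.4 and 82.8 CPM and 732 and 613 CPM. RPL39P3 and RPL41P5, with BCYRN1 the highest by TPM of the HEK-high genes with a symbol, are copies of ribosomal protein genes, and their levels are uncertain for that reason. BCYRN1, a small noncoding RNA related to Alu repeats, went from rank 225 to 53.

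At the extremes the rises were again larger than the falls, which mixing alone gives. Among genes with a symbol, no overlap between the groups and at least 20 CPM in the higher group, the 10 largest rises include SMIM10, at 0 and 0 CPM against 54.7 and 48.9 CPM, at least 89.7-fold higher, and CCDC8, a growth regulator of the 3M complex, at least 38.8-fold higher. They also include HOXB9, a positional homeobox factor, GPD2, the mitochondrial glycerol phosphate dehydrogenase, and the other genes C2orf74, HS3ST3A1, RASAL2, PALM2AKAP2, DEPDC1 and RPL41P5. In all, 1633 genes had at most 3 counts in each 0% library and at least 10 in each 20% library, and 1562 of them were higher in both pure HEK libraries than in either 0% library. The choice kept the 0% values low, so this bar was easy to pass. The reverse held for 6 genes, in 20% libraries that were deeper and still held Jurkat cells. At equal depth, with counts thinned to the shallowest library, the counts were 760 and 24.

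The 10 largest falls were smaller and held no gene of the T cell lists. Their log2 changes were below the median of -1.48 of the Jurkat-high genes, and falls beyond mixing were not tested. FAM111B, a nuclear protease gene, was at 66.7 and 153 CPM at 0% and 14.9 and 14.7 CPM at 20%, a log2 change of -3.06 ± 0.45 (SE, adjusted p = 0.0109). KBTBD2, an adaptor of a ubiquitin ligase, went from 154 and 106 to 24.8 and 14.2 CPM, and MGAT4A, a glycosyltransferase of N-glycan branching, from 157 and 92.5 to 22.0 and 19.9 CPM. NCK1, an adaptor of the receptor, was at 24.2 and 150.4 CPM and 10.3 and 11.7 CPM, and PELI2, a ubiquitin ligase of innate immune signaling, at 47.2 and 225 CPM and 17.9 and 22.3 CPM. IRF2 and IFIH1, a regulator and a sensor of the interferon response, HEMGN, a nuclear protein of blood cells, SMG1P3 and TDRD9 complete the 10. For several of them the 0% libraries were far apart. Without the second 0% library the log2 change of NCK1 went from -3.16 to -1.24, of PELI2 from -2.93 to -1.34, of TDRD9 from -3.26 to -1.95, of IRF2 from -2.84 to -1.90, of IFIH1 from -2.73 to -1.60 and of FAM111B to -2.28, all 6 still past the threshold. Without either 20% library these 6 no longer passed, SMG1P3 did not without the first, and NCK1 also did not with library totals (adjusted p = 0.0525). All but FAM111B, HEMGN, KBTBD2 and IFIH1 overlap another annotated gene. Their log2 changes stayed below 0 with spike-in scaling, from -2.18 for TDRD9 to -1.69 for MGAT4A, in the same libraries in which they were chosen.

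The step from 0% to 20% was then set against that from 20% to 40%. They are equal in cell percent but not in RNA, where the HEK share was 59.9% and 62.4% at 20% and 80.5% and 83.4% at 40%. For a gene near 0 in pure Jurkat, mixing alone gives the larger log2 change at the first step. Between 20% and 40% HEK, 0 of 17336 genes were called by the edgeR quasi-likelihood test, and 1753 had an unadjusted p under 0.05, while scaling to the spike-in totals called 755 higher and 61 lower at 40%. Both steps share the 20% libraries, so their difference was tested within one fit. It passed for 929 genes (5.36%), with 910 where the first step was higher than the second (5.25%) and 19 where it was lower (0.110%). With spike-in totals these were 1449 and 104. Among the former was RAB13, a GTPase of junction traffic, at 0.714 and 0.967 CPM at 0%, 205 and 207 CPM at 20% and a mean of 196 CPM at 40%, with a difference of 7.80 between the log2 changes (adjusted p = 0.00261). The others named by the same rule were VCAN, TES, DACH1 and RPL41P5. Among the latter was MORC3, a nuclear ATPase, at 51.5 and 61.3 CPM at 0%, 16.5 and 19.1 CPM at 20%, a mean of 34.2 CPM at 40% and 52.7 and 51.2 CPM in pure HEK, with a difference of -2.81 (adjusted p = 0.0253). Its levels in the pure lines overlapped.

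The opposite mixture, 80% HEK and 20% Jurkat, gives the same change of cell numbers from the other end. It is a smaller change of RNA, because the HEK share of RNA was 95.4% and 96.1% in the 80% libraries. In the 20% libraries it was 59.9% and 62.4%. Against pure HEK, 74 genes were higher (0.431%) and 2 lower (0.0116%) of 17179 (0.442% in all), where 20% HEK cells against pure Jurkat had given 4096 of 16199. Leaving out either 80% library left 0 genes of either direction in edgeR, with 1305 and 1468 at an unadjusted p under 0.05, and leaving out the first or the second pure HEK library gave 231 higher and 123 lower or 214 and 96. The 2 contrasts were not tested against each other.

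The 20% libraries were set against a mixture of the pure lines. With each library's HEK share of RNA, itself fitted on these libraries, the expected CPM of a gene is the weighted mean of the pure lines. Of 11355 genes with an expected level of at least 5 CPM, 94.0% were within 2-fold of it in both libraries, and 123 (1.08%) were off by more than 2-fold in the same direction in both, 39 above and 84 below. Without mixing, 65.4% of the same genes were within 2-fold of the pure Jurkat mean and 83.8% within 2-fold of the pure HEK mean in both libraries, a comparison chosen after seeing the data. In TPM, 87.4% of 9732 genes were within 2-fold of mixing, and 282 (2.90%) were off, 64 above and 218 below. For comparison, 3.52% of these genes were more than 2-fold apart between the 20% libraries and 13.5% between the 0% libraries. YBX1, a cold shock protein that binds RNA, was at 3397 and 2935 CPM at 20%, against 541 and 988 CPM at 0% and 478 and 1022 CPM in pure HEK, where mixing gives 756 and 755 CPM. Its pseudogene YBX1P1 was also among the 5 furthest above, with NSMAF, DHX35 and MTCO1P40. TUBA1C, an alpha-tubulin with near-identical paralogs, was at 7.62 and 1.98 CPM where mixing gives 29.2 and 30.4 CPM, and CAPN12, PSPC1P1, NPIPB3 and RN7SL674P were the others furthest below.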

How the data were processed

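Expression was measured by RNA-seq in 14 libraries, of which the 2 with 20% HEK and the 2 with 0% HEK cells are compared here, with 10 others as reference. The authors aligned reads with STAR 2.6.1b and quantified them with RSEM 1.3.1, as the submitters' processing notes name them, and the deposited tables hold estimated counts (the expected counts of RSEM) and TPM per gene, with 92 ERCC spike-ins as rows. Between 50.3% and 62.6% of expected counts above 0 were whole. The annotation release is not given in the sources used here. Of 58440 genes, 57754 matched GENCODE release 44 (GRCh38), which supplied symbols and coordinates, and the others took at most 0.327% of counts.

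Expected counts were rounded, spike-ins left out, and genes kept by filterByExpr. The test was edgeR 4.0.16 (R 4.3.3) with TMM and the quasi-likelihood fit on the 4 libraries, Benjamini-Hochberg adjusted p under 0.05. The steps from 0% to 20% and from 20% to 40% were fitted on 6 libraries, and the 80% to 100% contrast on 4. TPM was rescaled over genes. DESeq2 1.42.0, other scalings, filters, thinned counts and left-out libraries were the alternatives. On simulated data for the 20% against 0% comparison edgeR recovered the changes that had been put in, more fully for large ones. The simulation changed a small set of genes up or down at random. It therefore did not test the scaling under as large a shift of RNA as in these mixtures. The files held no replicate libraries that agreed within sampling noise.

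The libraries compared, the gene lists and the tests were chosen with earlier results of these data known. Genes were named from lists by function, by the 10 largest changes in each direction, by the highest TPM among genes with a symbol (15 Jurkat-high, 10 HEK-high, and 10 of each mixture), and by the 5 genes furthest from mixing or from equal steps in each direction. Sex-linked marker genes were not named, and a few other genes are not reported here. Depth was 4468822 to 18848017 gene counts, so low genes are measured least precisely in the 0% libraries. The pairs of libraries differed by more than counting noise, with chi-square per degree of freedom of 30.9 at 20% and 37.2 at 0%.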

Additional observations from a re-analysis of the deposited data

Results flagged for a closer look

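The log2 changes from 0% to 20% HEK and from 20% to 40% HEK differed for some genes by a test of their difference. It used a single edgeR quasi-likelihood fit of 6 libraries. The steps were unequal in RNA, with HEK shares of RNA of 59.9% and 62.4% at 20% and 80.5% and 83.4% at 40%. For a gene near 0 in pure Jurkat, mixing alone gives the larger log2 change at the first step. Changes beyond mixing were not tested here. The log2 change at the first step was above that at the second for 910 genes and below it for 19 genes, of 17336 tested. Left-out libraries moved these counts to between 334 and 730 above and between 1 and 26 below. RAB13 was at 205 and 207 CPM at 20% and at a mean of 196 CPM at 40%, against 0.714 and 0.967 CPM at 0%. MORC3 was at 16.5 and 19.1 CPM at 20% and at a mean of 34.2 CPM at 40%, against 51.5 and 61.3 CPM at 0%. With 2 libraries per mixture, no check for a library far from the others of its mixture could be made.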

How the results depend on the processing

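With 2 technical libraries per mixture, changes under about 2-fold and genes near 3 counts are measured weakly, the 0% libraries are the shallowest, and a fit that leaves out a library assumes that the lone one varies like the other group. No paired analysis was possible because the labels give the libraries no shared replicate numbers. Relative falls of Jurkat genes depend on the scale, and other calls on both 20% libraries.

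For 20% against 0% HEK, DESeq2 gave 2306 higher and 1610 lower and library totals 3184 and 1078, while a Bonferroni correction left 21 and 0 (edgeR, with 6781 at an unadjusted p under 0.05), no filter on low counts gave 4419 and 2021, spike-in totals 5917 and 87, and spike-in totals without the first or the second 20% library, tried after seeing the data, 7715 and 27 or 2210 and 45. Left-out libraries gave 711 to 2408 higher and 53 to 1572 lower, the low ends without the first 20% library. For 40% against 20%, library totals gave 1 higher and 3 lower, spike-in totals 755 and 61, and left-out libraries 0 to 1 and 0 to 3. The difference of the steps gave 1449 above and 104 below with spike-in totals, and 334 to 730 and 1 to 26 with left-out libraries, the lowest without the first 20% library. For 80% against 100%, left-out libraries, also tried after seeing the data, gave 0 to 231 higher and 0 to 123 lower.

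The HEK share of RNA was 65.5% by least squares, 64.5% in TPM, 66.9% from Jurkat-high and 57.9% from HEK-high genes only, 60.1% from genes 10 times apart and 59.9% to 62.4% with left-out libraries. Genes 10 times apart took 4.35% (Jurkat-high) and 0.0703% (HEK-high) of counts at 0% and 1.57% and 2.36% at 20%. The most abundant genes shared were 13 of 20 and 391 of 500, 64 of 100 by CPM, and 68 to 73 of 100 with left-out libraries. Genes that appeared at 20% were 759 at 30 counts and 760 at equal depth. Genes off mixing were 12 at a 4-fold limit, 64 at 20 CPM and 282 in TPM. The ratio of gene counts per ERCC count was 1.76 without the most abundant spike-in and 1.75 as the median over 69 spike-ins.

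Of the log2 changes of named genes, spike-in totals turned the sign for CD3D (0.0875), CD3E (0.43), LCK (0.0238), ZAP70 (0.41), ARHGDIB (0.45), VIM (0.56), ANXA1 (0.17), PSMA7 (0.15), B2M (0.26), TOP2A (0.0901), MT-RNR1 (0.29), MT-CO1 (1.03), ACTB (0.68), PTMA (0.12), HSP90AA1 (0.72) and TMSB4X (0.0428). LDHB was between -1.80 and 1.00 with left-out libraries, the latter without the first 0% library. MT-CO1 was 0.0315 with all 14 libraries in the fit, 0.16 without a filter and with library totals and -0.69 to 1.56 with left-out libraries, above 0 without the second 0% or the second 20% library. GAPDH was between -0.0657 and 0.22 with left-out libraries, below 0 without the second 0% or the second 20% library. The cause was not tested. Among 71 named genes DESeq2 changed no call or sign, and calls were lost for 42 genes without the first and 37 without the second 20% library, 5 and 9 without the first and second 0% library, and 22 with spike-in totals, beside those whose sign turned.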

Other observations

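YBX1 did not follow the HEK percent in either direction. It was at 541 and 988 CPM at 0%, 3397 and 2935 CPM at 20%, 877 and 447 CPM at 40%, 2689 and 709 CPM at 50%, 523 and 455 CPM at 60%, 1358 and 718 CPM at 80% and 478 and 1022 CPM at 100%. Both 20% libraries were above all 12 others, and 1 library at 50% and 1 at 80% were also above every library of the pure lines. The cause was not tested.

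The 0% libraries disagreed most for some abundant transcripts. LDHB, the heart type subunit of lactate dehydrogenase, was at 2599.9 and 367 CPM in the 2 libraries of Jurkat cells and at 959.5 and 646 CPM in the 20% libraries, and its log2 change of -1.04 had an adjusted p of 0.387 by the edgeR quasi-likelihood test. MT-CO1, a mitochondrially encoded subunit of cytochrome oxidase, was at 2242 and 10456 CPM and 7599 and 6619 CPM, with a log2 change of -0.01. The 20% values of both genes lay between those of the 0% libraries.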
